A study of Mus musculus with 12 samples.

Results

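Myc is known to drive the genes that build ribosomes and make polyamines, and 40 such genes are described here in pre-B cells sorted from Eµ-Myc mice before malignancy, with and without the chromosomal protein Smchd1. A listed gene counted as a member when the array's own name for a probe equalled its symbol, and the probe with the highest mean log2 level stood for the gene. In this way 29 of the 40 genes were found, among 28888 gene names on the array. Another 10 were on the array under older symbols, such as Nol1 for Nop2, and are given beside the members. Fbl, the methyltransferase of box C/D particles, had no probe under either name. Of the 29 members 26 were detected often enough to be tested, and of the 10 genes under older symbols 8.

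The 6 null samples carried the Eµ-Myc transgene on the C57BL/6 background and were homozygous for a genetrap allele of Smchd1. The 6 wildtype samples shared the transgene and the background and had wildtype Smchd1. The transgene places Myc under the immunoglobulin heavy-chain enhancer, which is active in B-lineage cells, so neither group stands for a normal pre-B cell. The labels give no age and leave unsaid whether every sample is its own mouse, so the p-values cover only how these 12 samples spread.

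Ribosome synthesis starts in the nucleolus, where RNA polymerase I transcribes the precursor of ribosomal RNA. Box C/D and box H/ACA particles (snoRNPs) modify the precursor, and separate sets of assembly factors process and export the small and the large subunit. Myc binds E-box elements near the start sites of many of these genes and of Odc1, the enzyme that begins polyamine synthesis. The polyamine spermidine also supplies the hypusine residue that the translation factor Eif5a needs.

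The canonical E-box, CACGTG, which reads the same on both strands, was looked for in promoter windows of 300 bases from RefSeq (GRCm38.p6), most of each before the gene's start and its last 50 bases after it. Of the 40 listed genes 34 had a window, and Bop1, Fbl, Npm1, Rrs1, Srm and Tcof1 had none in that table. At least 1 window held the motif for 10 of the 34 genes (29.4%), against 8.09% of all 27025 genes of the table, and genes with several windows had more chances. Among members it was 8 of 24 (33.3%), namely Wdr43, Pes1, Imp4, Mybbp1a, Nme1, Eif4e, Eif5a and Sms, and among genes under older symbols Nop2 and Utp20. The window of Odc1 did not hold the motif. Windows of 4 members whose levels are given below are printed to show where the element lies, with the E-box in capitals. It began at base 18 of the transcript in Wdr43 (chr17:71615965-71616264, plus strand) and at base 3 in Pes1 (chr11:3963725-3964024, plus strand). It began 121 bases before the start in Imp4 (chr1:34439579-34439878, plus strand) and 29 bases before it in the Nme1 window printed (chr11:93967976-93968275, minus strand). The other Nme1 window (chr11:93968223-93968522) held it too, 18 bases before its start. A match is a run of letters and says nothing about binding in these cells.
Wdr43: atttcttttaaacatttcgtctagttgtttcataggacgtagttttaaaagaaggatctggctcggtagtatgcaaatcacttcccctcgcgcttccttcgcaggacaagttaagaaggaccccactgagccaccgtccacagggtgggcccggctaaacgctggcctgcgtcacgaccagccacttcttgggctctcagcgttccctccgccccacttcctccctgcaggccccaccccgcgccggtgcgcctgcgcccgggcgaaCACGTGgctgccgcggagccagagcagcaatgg
Pes1: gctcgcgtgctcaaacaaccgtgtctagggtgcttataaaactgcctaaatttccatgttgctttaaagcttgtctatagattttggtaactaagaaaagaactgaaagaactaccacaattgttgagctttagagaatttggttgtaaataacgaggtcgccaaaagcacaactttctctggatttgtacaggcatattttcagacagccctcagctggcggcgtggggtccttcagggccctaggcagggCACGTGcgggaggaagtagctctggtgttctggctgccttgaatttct
Imp4: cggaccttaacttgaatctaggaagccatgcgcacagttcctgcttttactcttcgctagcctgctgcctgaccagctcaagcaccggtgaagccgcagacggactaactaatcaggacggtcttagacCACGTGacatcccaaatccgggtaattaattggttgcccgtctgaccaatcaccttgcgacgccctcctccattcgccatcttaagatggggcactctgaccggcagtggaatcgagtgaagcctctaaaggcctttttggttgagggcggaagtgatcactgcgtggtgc
Nme1: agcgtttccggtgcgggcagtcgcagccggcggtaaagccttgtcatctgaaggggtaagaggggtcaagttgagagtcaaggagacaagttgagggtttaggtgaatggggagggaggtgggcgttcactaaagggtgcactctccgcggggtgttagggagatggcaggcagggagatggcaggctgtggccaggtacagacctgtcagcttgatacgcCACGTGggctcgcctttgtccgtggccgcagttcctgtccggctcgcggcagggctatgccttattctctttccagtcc

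Each sample was hybridised to 1 Illumina MouseWG-6 array with 45281 probes, of which 15396 to 16587 were detected per array, and precision is set by the number of arrays. Smchd1 itself, by its brightest probe, had a lowest, median and highest log2 level of 4.63, 4.97 and 5.65 in null arrays, against 9.30, 9.43 and 9.64 in wildtype arrays, as the labels say. That probe was still detected on 4 of 6 null arrays. Another Smchd1 probe was detected on all 6, with a mean of 5.76 in null and 7.15 in wildtype arrays. Of 15 pre-B and B-lineage genes on the array 10 were detected on all 12 arrays, and Vpreb2 and Bst1 on none. The arrays lay on 2 BeadChips, each with 3 null and 3 wildtype arrays. Some null arrays stood apart from the rest. The mean of 13 interferon response genes lay 3.00 above the wildtype mean in null 5, 2.42 in null 6 and 1.45 in null 3, and at most 0.32 above it in the other null arrays. The mean of 13 myeloid genes lay 3.61 above it in null 3. The mean of 9 T and NK genes lay 1.52 above it in null 5, 1.38 in null 3 and 0.99 in null 6, with Cd8a, Trac and Ncr1 detected on no array. The mean of 5 plasmacytoid dendritic genes lay 2.31 above it in null 5 and 1.59 in null 6, with Irf7 also in the interferon list and Ccr9 and Runx2 detected on no array. The mean of 4 plasma cell genes lay 0.077 to 0.92 above it in the 6 null arrays, highest in null 5. In wildtype arrays it lay at most 0.064 above, and Prdm1, Jchain and Tnfrsf17 were detected on no array. These 4 genes did not move alike, with changes from -0.51 to 0.78 and 0 called. At an unadjusted p under 0.05 2 were higher and 1 lower, beside 7.42% and 10.7% of all tested probes. The mean of 3 erythroid genes reached 1.67 in null 3, with -1.48 to -0.25 over the remaining 5 null arrays, against -0.41 to 0.93 in wildtype arrays. The mean of 12 pre-B and B-lineage genes lay below every wildtype array in 5 of 6 null arrays, at -1.25 in null 5 and -0.51 to -0.27 in null 1, 2, 3 and 6, and was 0.52 in null 4, against -0.20 to 0.10 in wildtype arrays. The median change of these 12 genes was -0.27, with 0 called and 3 lower at an unadjusted p under 0.05, beside 10.7% of all tested probes. At that threshold 8 of 13 interferon response, 7 of 9 T and NK and 1 of 5 plasmacytoid dendritic genes were higher, beside 7.42% of all tested probes. In these 3 lists 0 genes were lower and 0 called. Of the myeloid and erythroid genes 0 were higher or lower.

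Most members were detected in both groups. Of the 29 members found, 25 were detected on all 12 arrays, Rrs1 on 8, and Dkc1, Wdr12 and Sms on none. In the comparison of the groups 0 of the 26 tested members were called higher or lower in null than in wildtype arrays (limma, adjusted p under 0.05). Over all 17607 tested probes 0.534% were called higher and 0.687% lower, together 1.22%. At an unadjusted p under 0.05 Wdr43 and Srm had the higher null mean, 7.69% of the members beside 7.42% of all tested probes, and 0 members were lower, beside 10.7%. The median log2 change of the members was -0.034, beside -0.036 over all tested probes, and single members ran from -0.16 (Nolc1) to 0.23 (Wdr43). The change was above 0 for 12 of 26 members (46.2%), beside 41.8% of all tested probes. The 95% interval of the change lay within 1.5-fold either way for all 26 tested members, beside 78.8% of all tested probes, and reached furthest down for Nolc1 (-0.49) and furthest up for Pes1 (0.54). A p that misses the threshold does not show equal levels, and in bulk samples fewer cells of a type and less RNA per cell cannot be told apart. When arrays were scaled to a common median, with no quantile step, the calls over all probes were 59 higher and 33 lower, in place of 94 and 121, and 0 members reached an unadjusted p under 0.05.

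**Figure D1:**
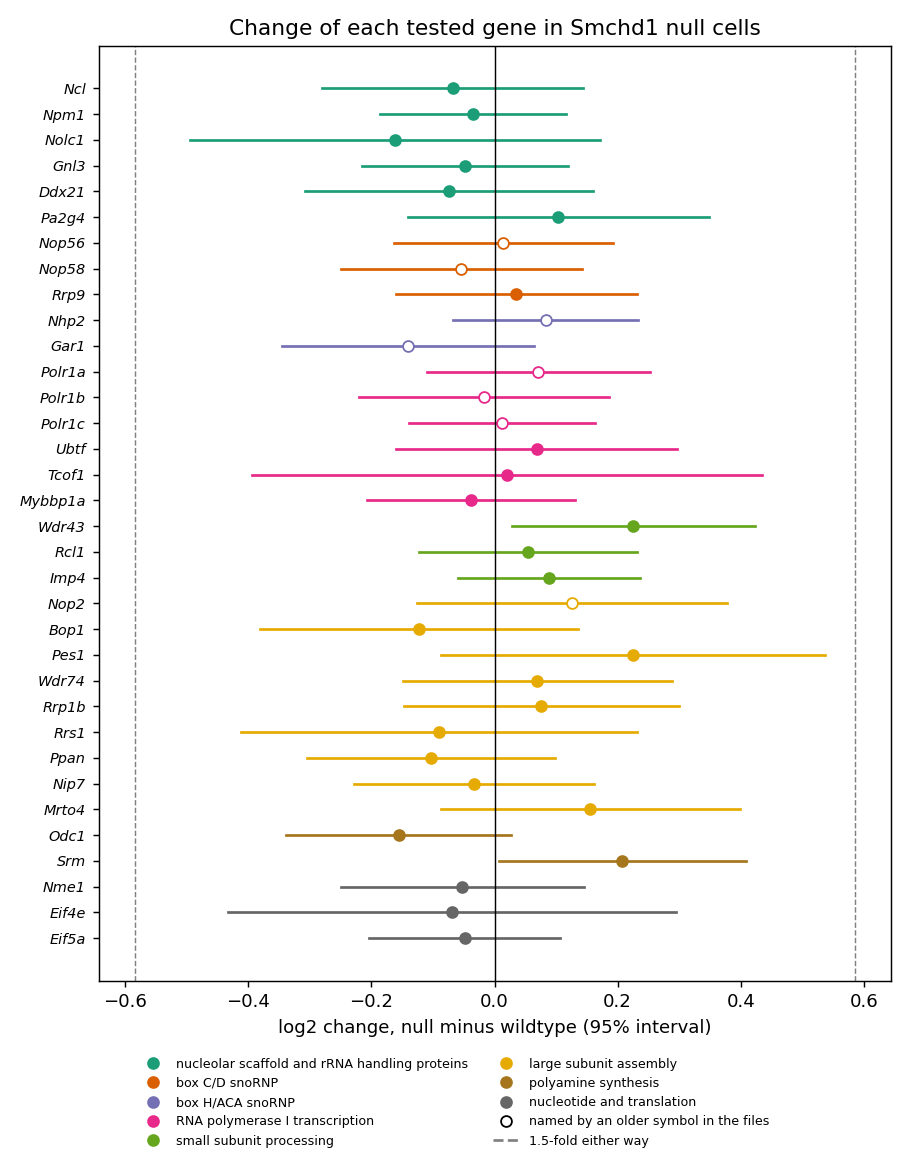
Log2 change of each of 34 tested genes, null minus wildtype, with its 95% interval from limma; colours give the role, open points the 8 genes under older symbols, and dashed lines 1.5-fold either way. All 34 intervals lie between the dashed lines, and those of Wdr43 and Srm lie above 0.

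Among nucleolar scaffold and rRNA handling proteins 0 of 6 were called, with a median change of -0.058. Ncl (NCL in the files), or nucleolin, which binds nascent ribosomal RNA, had a lowest, median and highest log2 level of 10.77, 11.23 and 11.34 in null arrays, against 11.11, 11.28 and 11.31 in wildtype arrays. The groups overlapped, with null 5 below every other array and null 4 the highest. The change came to -0.068 (SE 0.10, limma adjusted p = 0.75) and was -0.20 on BeadChip 1 and 0.062 on BeadChip 2. Npm1 (nucleophosmin), a nucleolar chaperone, stood at 13.92, 14.03 and 14.16 in null arrays, against 14.00, 14.09 and 14.15 in wildtype arrays. These ranges overlapped almost whole, and the change was -0.035 (SE 0.070). Nolc1, a chaperone of snoRNPs, was read by a dim probe at 5.59, 6.30 and 6.39 in null arrays, against 5.85, 6.38 and 6.57 in wildtype arrays. Null 5 was lowest and wildtype 1 highest, and the change of -0.16 (SE 0.15, limma adjusted p = 0.61) was -0.41 on BeadChip 1 and 0.086 on BeadChip 2. Pa2g4, a growth-regulated RNA-binding protein of the nucleolus, stood at 11.16, 11.49 and 11.63 in null arrays, against 11.18, 11.30 and 11.72 in wildtype arrays. In 5 of 6 null arrays it lay above the wildtype median, wildtype 6 was the highest array, and the change was 0.10 (SE 0.11, limma adjusted p = 0.66). Gnl3 (nucleostemin), a nucleolar GTPase, and Ddx21, an RNA helicase of ribosomal RNA synthesis, had wildtype means of 12.86 and 10.69 and changes of -0.048 (SE 0.078) and -0.074 (SE 0.11).

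Of the snoRNP proteins the 1 tested member was Rrp9, a component of the U3 particle, with 9.03 ± 0.17 in null and 8.998 ± 0.11 in wildtype arrays (SD, n = 6 each). The box C/D core protein Nop56, under its older symbol, stood at 10.73, 11.00 and 11.10 in null arrays, against 10.86, 10.96 and 11.04 in wildtype arrays. The groups overlapped, with null 3 lowest, and the change was 0.014 (SE 0.083). Its partner Nop58 had a change of -0.054 (SE 0.091). Of the box H/ACA proteins, which guide pseudouridylation, Nhp2 had a change of 0.083 (SE 0.070) and Gar1 one of -0.14 (SE 0.10, limma adjusted p = 0.45). Gar1 stood at 12.44 in null 5, the lowest of the 12 arrays. Dkc1, the pseudouridine synthase of these particles, was detected on 0 of 12 arrays by either of its 2 probes.

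Among 3 tested members that act in RNA polymerase I transcription 0 were called. Ubtf, which binds the ribosomal DNA promoter, stood at 9.53, 9.89 and 10.23 in null arrays, against 9.79, 9.82 and 9.93 in wildtype arrays. Null 3 and null 6 lay above every wildtype array and null 5 below, and the change was 0.068 (SE 0.11, limma adjusted p = 0.77). Tcof1 (treacle), a nucleolar cofactor of the polymerase, stood at 9.19, 9.74 and 10.62 in null arrays, against 9.53, 9.71 and 10.07 in wildtype arrays. Null 6 was the highest and null 5 the lowest of the 12 arrays, and the change of 0.021 had the largest SE of the members, 0.19. Mybbp1a, a nucleolar Myb-binding protein, had a wildtype mean of 12.26 and a change of -0.038 (SE 0.078). The polymerase subunits were on the array under older symbols. Polr1b, the second largest, stood at 9.06, 9.26 and 9.49 in null arrays, against 9.07, 9.30 and 9.47 in wildtype arrays. Its groups overlapped almost whole, and the change was -0.017 (SE 0.095). Polr1a, the largest, and Polr1c, shared with RNA polymerase III, had changes of 0.071 (SE 0.084) and 0.013 (SE 0.070), and the 4 tested probes of Polr1a lay on both sides of 0.

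Among 3 members of small subunit processing 0 were called, and all 3 changes were above 0. Wdr43 (WDR43 in the files), a WD-repeat protein of the early processome and the member with the smallest p, stood at 10.18, 10.24 and 10.68 in null arrays, against 9.95, 10.08 and 10.18 in wildtype arrays. The groups did not overlap, though narrowly, with null 6 at 10.183 and wildtype 2 at 10.180, and null 4 stood well above the other null arrays. The change came to 0.23 (SE 0.092, limma adjusted p = 0.22) and was 0.32 on BeadChip 1 and 0.13 on BeadChip 2, and 0.15 without null 4. Wdr43 was the 1 member (3.85%) whose null arrays all lay above its wildtype arrays, beside 1.38% of all tested probes. In the same way 0 members lay below, beside 1.63%. Wdr43 lies on chromosome 17, which also carries Smchd1. Whether the genetrap allele or the segment around it has a part in this change was not tested. Imp4, a U3 particle protein, stood at 11.28, 11.45 and 11.54 in null arrays, against 11.29, 11.36 and 11.39 in wildtype arrays. In 4 of 6 null arrays it lay above every wildtype array and in null 5 below, and the change was 0.089 (SE 0.069, limma adjusted p = 0.52). Rcl1, an endonuclease of rRNA processing in yeast, had a wildtype mean of 11.66 and a change of 0.054 (SE 0.083). Utp20, under an older symbol, was detected on 0 arrays.

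Large subunit assembly had 8 tested members, and 0 were called. Pes1, Bop1 and Wdr12 form the PeBoW complex, which matures the large subunit. Pes1 stood at 8.09, 8.65 and 8.99 in null arrays, against 8.13, 8.37 and 8.64 in wildtype arrays. Null 1, null 2 and null 4 lay above every wildtype array and null 5 below, and the change was 0.22 (SE 0.14, limma adjusted p = 0.43), or 0.33 without null 5. Bop1 stood at 9.58, 10.23 and 10.29 in null arrays, against 10.11, 10.21 and 10.47 in wildtype arrays. Null 5 and null 3 lay below every wildtype array, wildtype 1 was the highest array, and the change was -0.12 (SE 0.12, limma adjusted p = 0.62), or -0.017 without null 5. Wdr12 was detected on 0 arrays.

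Mrto4, which takes the place of a stalk protein during assembly, stood at 10.39, 10.86 and 11.07 in null arrays, against 10.49, 10.63 and 10.92 in wildtype arrays. In 5 of 6 null arrays it lay above the wildtype median and in null 5 below every wildtype array, and the change was 0.16 (SE 0.11, limma adjusted p = 0.49). Ppan, a Brix-domain assembly factor, stood at 11.84, 12.06 and 12.22 in null arrays, against 12.01, 12.13 and 12.46 in wildtype arrays. The groups overlapped, with null 5 lowest and wildtype 4 highest, and the change was -0.10 (SE 0.093, limma adjusted p = 0.59). Wdr74, Rrp1b and Nip7, nucleolar proteins of large subunit maturation, had wildtype means of 10.54, 10.10 and 10.78 and changes of 0.070 (SE 0.10), 0.076 (SE 0.10) and -0.033 (SE 0.090). Rrs1, a factor that helps to place the 5S particle in yeast, was detected on 4 null and 4 wildtype arrays and had a change of -0.090 (SE 0.15). Nop2, an RNA methyltransferase under its older symbol, had a change of 0.13 (SE 0.12, limma adjusted p = 0.60), and Nop16, likewise under an older symbol, was detected on 0 arrays.

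Of the polyamine enzymes Odc1 had the lower and Srm the higher null mean, and neither was called. Odc1 (ODC1 in the files), ornithine decarboxylase, stood at 11.85, 12.08 and 12.28 in null arrays, against 12.13, 12.25 and 12.29 in wildtype arrays. In 4 of 6 null arrays it lay below every wildtype array, and in null 2 and null 4 within the wildtype range. The change came to -0.16 (SE 0.085, limma adjusted p = 0.35) and was -0.18 on BeadChip 1 and -0.13 on BeadChip 2. Srm (SRM in the files), spermidine synthase, which uses the putrescine that Odc1 makes, stood at 11.67, 11.75 and 12.09 in null arrays, against 11.42, 11.57 and 11.80 in wildtype arrays. All 6 null arrays lay above the wildtype median, null 4 was highest, and wildtype 1 lay within the null range. The change came to 0.21 (SE 0.093, limma adjusted p = 0.26) and was 0.18 on BeadChip 1 and 0.23 on BeadChip 2, and 0.15 without null 4. Its further probes gave 0.27 (SE 0.082, limma adjusted p = 0.12) and 0.22 (SE 0.088, limma adjusted p = 0.22). Sms, spermine synthase, was detected on 0 arrays by its 1 probe.

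Of the 3 members that act in nucleotide supply and translation 0 were called. Nme1, a nucleoside diphosphate kinase, stood at 13.60, 13.85 and 14.10 in null arrays, against 13.79, 13.90 and 14.09 in wildtype arrays. The groups overlapped, with null 5 lowest and null 2 highest, and the change was -0.052 (SE 0.092). Eif4e, which binds the mRNA cap, was read by a dim probe at 5.24, 6.05 and 6.37 in null arrays, against 5.70, 6.03 and 6.22 in wildtype arrays. Null 5 was lowest and null 4 highest, and the change was -0.069 (SE 0.17). Eif5a stood at 12.96, 13.13 and 13.25 in null arrays, against 13.13, 13.15 and 13.19 in wildtype arrays. The wildtype arrays lay close together, with null 3, null 5 and null 6 below all of them and null 1, null 2 and null 4 above, and the change was -0.048 (SE 0.072). Npm1, Nme1 and Eif5a have closely similar paralogs or processed copies in the genome, and which of these a probe reads was not tested.

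**Figure D2:**
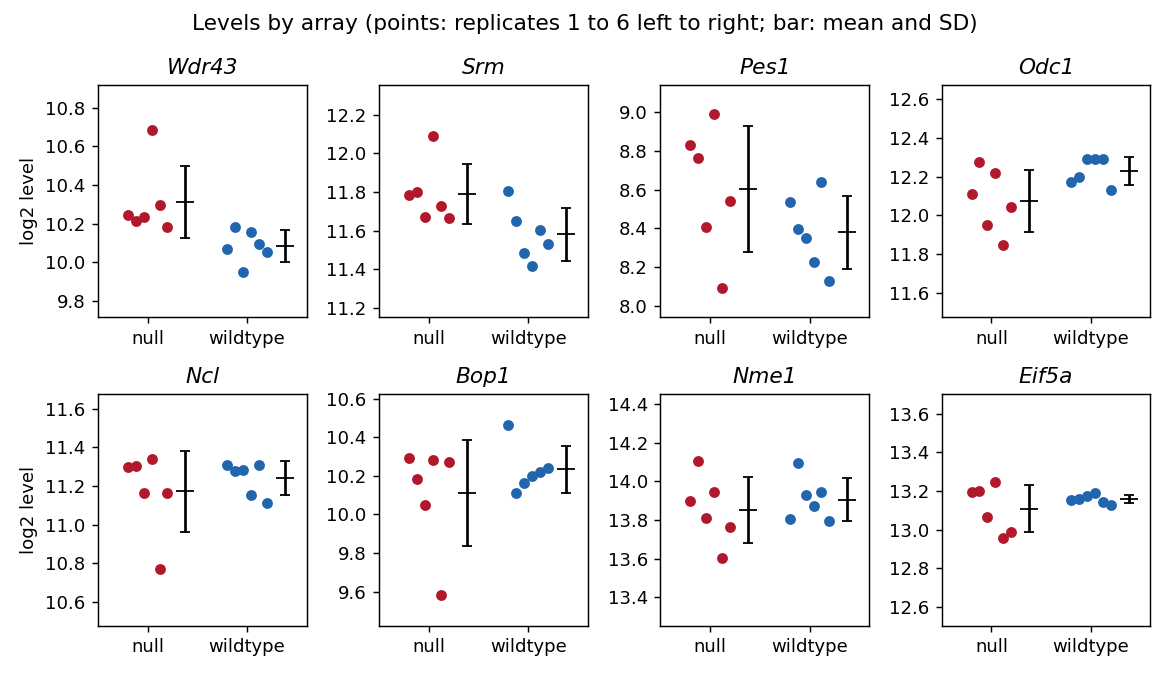
Log2 level of 8 members in each of 6 null (left) and 6 wildtype (right) arrays, with the mean and SD as a bar beside the points. Wdr43 does not overlap between the groups, Srm and Odc1 overlap, and null 5 is the lowest null array for Pes1, Odc1, Ncl, Bop1, Nme1 and Eif5a.

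The mean of the 26 members, set against their wildtype mean, was -0.29 in null 5, where 22 of the 26 (84.6%) lay below every wildtype array, beside 39.7% of all tested probes. It was 0.15 in null 4, where 10 (38.5%) lay above every wildtype array, beside 22.7% of all tested probes, and -0.039 to 0.090 in the other null arrays, against -0.034 to 0.025 in wildtype arrays. The 8 genes under older symbols averaged -0.21 in null 5 and 0.16 in null 4. In null 5 the median of all tested probes was -0.11 and the mean of 28 cell cycle genes -0.63, beside the interferon, T and NK, plasmacytoid dendritic, plasma cell and B-lineage values given above. Their part in the low values of null 5 was not tested. In null 6, second to null 5 in the interferon and plasmacytoid dendritic means, the members averaged 0.066, with a median of 0.010. The cell cycle mean of null 6 was -0.18 and its B-lineage mean -0.41, against -0.63 and -1.25 in null 5. What sets null 5 and null 6 apart was not tested. Without null 5 the median change of the members was 0.040, with 0 called.

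**Figure D3:**
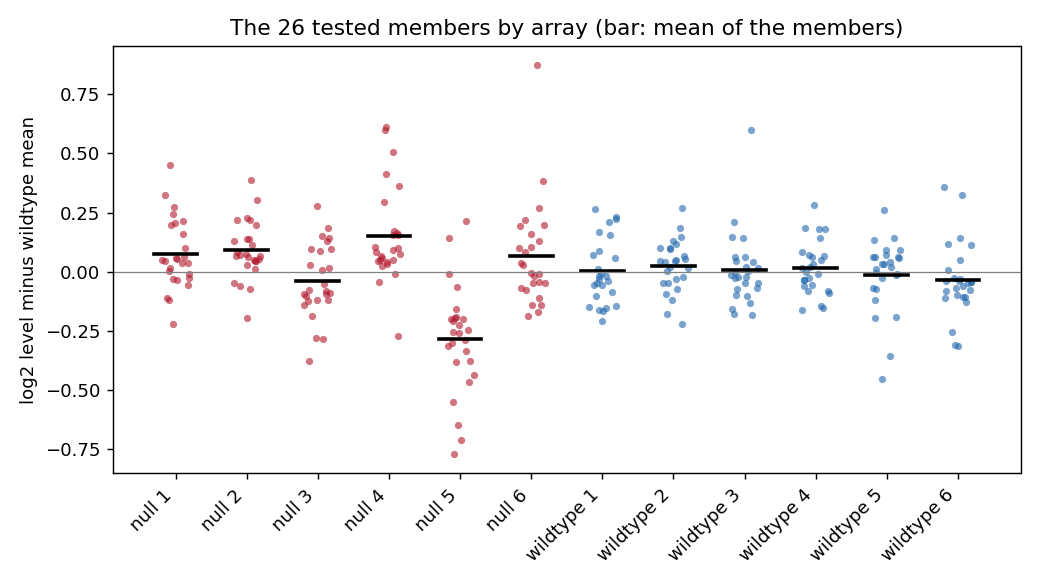
Log2 level minus the wildtype mean of each of the 26 tested members (points) on 6 null and 6 wildtype arrays, with the mean over the members as a bar. Null 5 lies at -0.29 and null 4 at 0.15, and the wildtype means lie between -0.034 and 0.025.

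The SD over 6 null arrays exceeded that over 6 wildtype arrays for 22 of 26 members (84.6%), beside 74.2% of all tested probes. The median SD of the members was 0.18 in null and 0.12 in wildtype arrays, and that of all tested probes 0.23 in null and 0.16 in wildtype arrays. Without null 5 it was larger in null for 16 of 26 members (61.5%), beside 64.1% of all tested probes, and the median null SD of the members was 0.13. The 5 largest null SDs were those of Tcof1 (0.48, against 0.20 in wildtype), Eif4e (0.41, against 0.19), Pes1 (0.33, against 0.19), Nolc1 (0.32, against 0.25) and Bop1 (0.27, against 0.12). Only Pa2g4, Rrs1, Ppan and Nip7 had the larger SD in wildtype. The standard error over the beads of a probe, from raw intensities before background correction, was 0.046 to 0.069 log2 units. The wildtype SD, from the processed values, exceeded it for 23 of 26 members, all but Ubtf, Imp4 and Eif5a. The scales differ, most for dim probes, where the raw intensity still holds the background and makes the bead error look smaller.

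**Figure D4:**
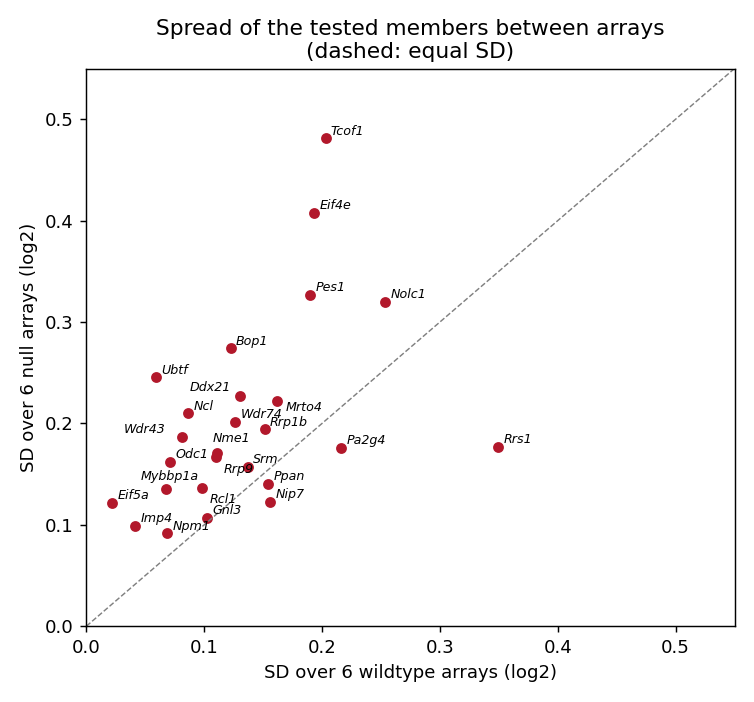
SD of each of the 26 tested members over 6 null arrays (vertical axis) against that over 6 wildtype arrays (horizontal axis), in log2 units, with a dashed line of equal SD. All but Pa2g4, Rrs1, Ppan and Nip7 lie above the line, and Tcof1 is highest at 0.48.

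Over the 12 arrays the members tended to vary together. With group means removed, the correlation of a member with the mean of the other members over 12 arrays had a median of 0.67, from 0.23 (Wdr43) to 0.90 (Ncl), and was above 0 for all 26. Over all tested probes the median correlation with the members' mean was 0.14. The mean of the members lay furthest from the wildtype mean in null 5 (-0.29) and null 4 (0.15), against -0.034 to 0.025 in wildtype arrays. How far the correlations rest on null 5 and null 4 was not tested. These points share the arrays and their normalization, so the values are descriptions. Myc, by its 1 detected probe, stood at 8.21, 8.41 and 8.89 in null arrays, against 8.26, 8.41 and 8.76 in wildtype arrays. It was highest in null 1, next in null 5 and lowest in null 4, and its change was 0.028 (SE 0.13, limma adjusted p = 0.94).

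The other genes of the pathway gave 0 calls in either direction. Of 34 further genes of the small subunit processome 3 were lower and 0 higher at an unadjusted p under 0.05, beside 10.7% and 7.42% of all tested probes, namely Ddx52, an RNA helicase (-0.22, SE 0.072), Utp15 (-0.36, SE 0.12) and the U3 protein Mphosph10 (-0.40, SE 0.16). Their limma adjusted p were 0.14, 0.15 and 0.21, and the median of the list was -0.056, beside -0.036 over all tested probes. Of 31 further large subunit factors the helicase Ddx51 was higher (0.26, SE 0.076) and the RNA kinase Nol9 lower (-0.26, SE 0.10) at an unadjusted p under 0.05, with limma adjusted p of 0.10 and 0.21 and a list median of -0.015. The 10 further polymerase I subunits and factors had a median of 0.057, with the initiation factor Rrn3 at -0.24 (SE 0.13), and the 6 further snoRNP factors one of -0.039. The 66 cytosolic ribosomal proteins had a median of 0.011, and their mean was -0.0051 in null 5, where that of the further small subunit factors was -0.29. At an unadjusted p under 0.05 Rpl13a was higher (0.26, SE 0.088) and Rpl14 lower (-0.36, SE 0.14), with limma adjusted p of 0.16 and 0.21, and many ribosomal protein genes have near-identical processed copies.

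Of 11 further genes of polyamine metabolism 0 were called, with a median of 0.0038. Smox, spermine oxidase, had a change of 0.76 (SE 0.30), with limma adjusted p = 0.21, and its SD was 0.82 in null and 0.16 in wildtype arrays. Mat2a, which makes S-adenosylmethionine, was at -0.21 (SE 0.10), Mtap, which salvages methylthioadenosine, at 0.28 (SE 0.14), and Paox, a polyamine oxidase, at 0.15 (SE 0.086). Of 22 other growth genes known as Myc targets 0 were called, with a median of 0.0055; Nme2 was at 0.16 (SE 0.085) and Ldha, lactate dehydrogenase, at -0.13 (SE 0.086). Of 9 genes of Myc and its partners 0 were called, with a median of -0.12 and the Myc antagonist Mxi1 at -0.26 (SE 0.12), with limma adjusted p = 0.26. The 28 cell cycle genes had a median of -0.23 and 0 calls, with 4 of 28 lower at an unadjusted p under 0.05, beside 10.7% of all tested probes. Their changes ran from -0.48 to -0.032. In every null array their mean lay below every wildtype array, at -0.63 (null 5) to -0.060 (null 2), against -0.042 to 0.048 in wildtype arrays.

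**Figure D5:**
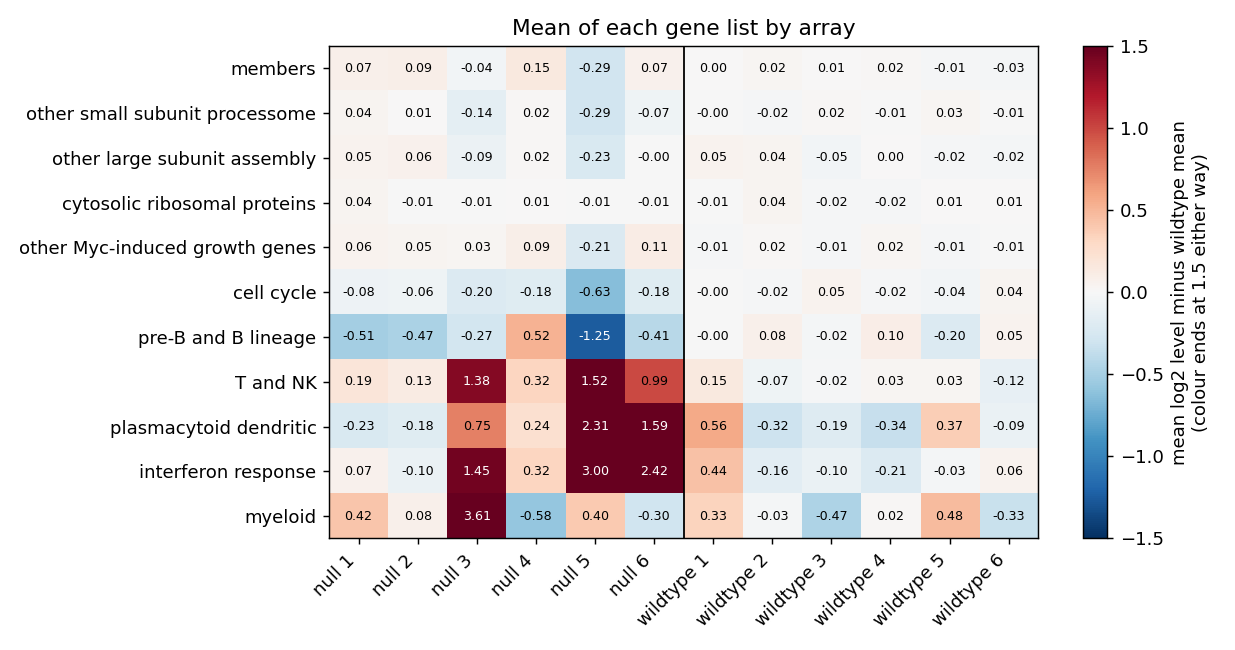
Mean log2 level minus the wildtype mean of gene lists (rows) on 6 null and 6 wildtype arrays (columns), with the colour scale ending at 1.5 either way. The members are lowest in null 5 (-0.29), where the cell cycle mean is -0.63 and that of cytosolic ribosomal proteins -0.0051.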

How the data were processed

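RNA of 12 sorted samples was hybridised to 1 array each, and the labels' titles gave the groups. The deposited tables hold raw bead intensity per probe, its SD and number of beads, per the file headers. They also hold a detection score, a deposited fraction equal to 1 minus the deposited detection p-value. The authors' log2 values were made with limma's neqc, per the deposited readme. Per the submitters' processing notes the tools were R 2.15.1 with limma 3.12.1, and BeadStudio; per the file headers it was GenomeStudio 1.8.0. No source used here gives a genome build.

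The intensities were processed again with neqc (limma 3.58.1, R 4.3.3; normexp on 936 negative controls, offset 16, quantile normalization) and differed from the authors' log2 values by at most 5.0e-09. Probes with a detection p under 0.05 on at least 3 arrays were tested, 17607 in all, with lmFit and eBayes, no covariate and Benjamini-Hochberg adjustment over all of them. The fit was tested on simulated data, drawn independently with the same SD in both groups. That test did not cover the larger null spread or the shifts shared by many genes of an array. A change is a difference of log2 means, null minus wildtype, and levels of different probes were not compared. Gene names were updated with the RefSeq table of GRCm38.p6, which matched 27400 probes by symbol and 8341 by synonym, and 9540 kept the file's name.

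Members, lists and tests were chosen with earlier results of these data known. Values by array were given for the 10 members of smallest p, the 5 of largest null SD and 12 named examples, and in each further pathway list genes were named from the 4 of smallest p. Each of 2 BeadChips held 3 arrays of each group. Correlations between the deviations of same-numbered null and wildtype arrays ran from -0.29 to 0.085 over 6 numbers. The 2 arrays of a number always lay on different BeadChips. A difference between BeadChips could hide a pairing, so these values cannot decide whether the numbers pair the samples. Alternatives were the scaling, background, offset, filter, blocks, weights, prior, probe choice, each BeadChip and each array left out; leaving out null 3 and null 5, or null 4 and null 5, was chosen after seeing the data.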

Additional observations from a re-analysis of the deposited data

Results flagged for a closer look

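In 5 of 70 groups of 6 values examined, 1 array lay further from the other 5 than Dixon's 95% limit allows, which chance gives in about 1 of 20 groups. In null 5 Ncl stood at 10.77 and Bop1 at 9.585, 0.389 and 0.462 below the next null array. In null 4 Wdr43 stood at 10.68 and Srm at 12.09, 0.385 and 0.291 above the next null array. In wildtype 1 Bop1 stood at 10.47, 0.226 above the next wildtype array. Without null 5 the change of Ncl was 0.012 and that of Bop1 -0.017.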

How the results depend on the processing

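Under all 26 alternatives 0 members were called higher and 0 lower, and 0 of 883 values of single genes passed, with a smallest limma adjusted p of 0.15 (Pes1, null 3 and null 5 left out). The sign of a gene's change turned in 66 of these values, for 26 of 34 genes; Nhp2, Gar1, Wdr43, Pes1, Ppan, Mrto4, Odc1 and Srm kept theirs. The median change of the members ran from -0.067 (median scaling) to 0.069 (without null 3 and null 5, an alternative added once the data had been seen), and from -0.048 to 0.040 with each array left out in turn. The median null SD ran from 0.13 (without null 5) to 0.19. Calls over all probes (tested probes higher in null, tested probes lower in null) numbered 59 and 33 with median scaling, 49 and 52 with no filter, 7 and 5 on BeadChip 1 alone, 33 and 10 on BeadChip 2 alone, and 190 and 190 with array weights. With null 4 and null 5 left out they were 169 and 140. With each array left out they ran from 40 (without wildtype 3 or wildtype 6) to 136 (without null 5) higher and from 28 (without either of these) to 189 (without null 2) lower. With the replicate block 64 were higher and 40 lower, against 94 and 121 without it, and it changed no member's call. Whether the numbers pair the samples was not settled. The cause of these shifts was not tested. Members detected on no array have no measured level here.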

Other observations

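Probes of 1 gene did not always lie on the same side of 0. Over 12 members with several tested probes the changes within a gene spanned a median of 0.080 and at most 0.19 (Mybbp1a), and 0 of the 45 tested probes of the members passed. The 4 tested probes of Polr1a, under its older symbol, gave 0.071, 0.17, -0.043 and -0.24, the last with a limma adjusted p = 0.23. The 3 probes of Srm all lay above 0.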
